A study of Mus musculus with 12 samples.

Results

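Mouse splenic dendritic cells of high CD11c were sorted into CD8+ cells, CD4+ cells and cells with neither marker (CD4- CD8-, called DN for double negative). RNA of each subset was taken directly after isolation (fresh) or after 2 h in culture medium at 37 °C (cultured), which gave 6 groups of 2 oligonucleotide arrays. The labels number the replicates as experiment 1 and 2 without saying what the arrays of a number shared. The comparison described here is the difference between subsets in the response to that culture: the cultured minus fresh change in CD8+ cells minus the mean of the same change in the 2 CD8-negative subsets. It used all 12 of the 12 arrays, and 3363 of 12422 probe sets were bright enough to be measured in both states of each subset. The labels give no strain, age or number of animals, no addition to the medium and no statement that replicates came from separate animals, so the p-values cover only the spread between these arrays, which may be technical. The cells were not stimulated by anything the labels name, and each group is the sorted population as a whole, so fewer cells of a type and less RNA per cell cannot be told apart.

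Dendritic cells present antigen to T cells, and removing them from the spleen and placing them in medium is known to start a maturation programme without added microbial products. In that programme NF-kB dimers, held in the cytosol by IkB proteins, enter the nucleus and induce genes of costimulation, migration and survival, together with their own inhibitors. The CD8+ subset is known for taking up dying cells and presenting their antigens on MHC class I, while the CD8-negative subsets are known for presentation on MHC class II and depend on RelB and Notch signals for their development.

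Values are the authors' scaled intensities, and changes are given on a generalised log2 scale that stays defined near 0. The response difference is positive where CD8+ cells changed more in the upward direction than the CD8-negative mean, and negative in the opposite case. A probe set was called where its adjusted p was under 0.05 in limma's moderated test. The changes were called apart where all 4 pairings of a cultured with a fresh CD8+ array gave a change above, or all below, the 8 pairings of the CD4+ and DN arrays. Measured means a group mean above the detection floor of 91.4 in all 6 groups. Nearest to the floor, Cyb5r1 had a lowest group mean of 91.4 and was inside, and Snx5 had 91.3 and was outside.

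The sorting markers followed the labels. Cd8a, which encodes the CD8 alpha chain, had intensities of 1210.4 and 1675 in fresh and 891 and 679 in cultured CD8+ cells and was at or below 36.1 on the other 8 arrays. Cd4 had 617 and 613 in fresh and 271 and 112 in cultured CD4+ cells. Outside the CD4+ subset it was at or below 105.6, the value on cultured CD8+ replicate 2. It therefore hardly set cultured CD4+ replicate 2 apart from the other subsets. The description of fresh CD8+ replicate 1 contradicts its title and gives CD4 as the positive marker. Its intensities were 1210.4 for Cd8a and 92.0 for Cd4, and it was kept as CD8+. The Gapdh 3′ to 5′ signal ratio is a possible sign of RNA integrity. It was 2.55 on fresh CD8+ replicate 1, 1.97 on cultured CD4+ replicate 1, 1.34 on cultured DN replicate 1 and 0.89 to 1.04 elsewhere. For actin it was 0.91 on fresh CD8+ replicate 1, 1.16 on cultured CD4+ replicate 1 and 0.92 on cultured DN replicate 1. The highest actin value, 1.28, was on cultured CD4+ replicate 2, which was kept. Whether RNA was degraded on the 3 arrays of highest Gapdh ratio was not tested. All 3 are of replicate 1, so leaving them out overlaps with the contrast of experiment 1 and 2. Fresh CD8+ cells enter every response difference, so values without these 3 arrays or without fresh CD8+ replicate 1 are given beside many genes. Itgax, which encodes CD11c, was above the floor on all 12 arrays.

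No response difference passed the adjusted threshold. Of the 3363 probe sets, 0 were called (0.0%), and the smallest adjusted p was 0.11, shared by Dtx1, Relb and 1 probe set without a single gene name. An unadjusted p under 0.05 was reached by 251 probe sets (7.46%), where 5% of the 3363 would be 168. Of these, 132 (3.93%) had a positive and 119 (3.54%) a negative response difference. The changes were apart for 120 probe sets in the upward direction (3.57%) and for 135 in the downward direction (4.01%). Of the 120, 59 went up in CD8+ cells and down in the CD8-negative mean, 23 went up in both and 38 went down in both. Of the 135, 77 went down in CD8+ cells and up in the CD8-negative mean, 31 went up in both and 27 went down in both. Fresh CD8+ cells lay below the CD8-negative mean for 102 of the 120 and above it for 116 of the 135. Over all 3363 probe sets they lay below it for 1611. Fresh levels enter the response difference, so such a lean is in part built in. The typical response difference was about the size of its error, with a median absolute value of 0.39 against a median standard error of 0.45.

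Without the 3 arrays of highest Gapdh ratio, 14 probe sets were called, although 3 groups then had 1 array each and the lone array is assumed to vary like the others. The 10 with a positive response difference belonged to Relb, Dtx1, Cd81, Cd40, Cd14, Ly6e, Usp18, Hk2 and, with 2 probe sets, Psap. The 4 with a negative one belonged to Cd86, Tubb2a, Ncoa4 and Ifngr1. Values ran from 1.63 for Relb to 3.19 for Psap and from -2.08 for Cd86 to -1.96 for Ifngr1 (limma, adjusted p 0.0333 to 0.0465), and 10 of the 14 probe sets had an unadjusted p under 0.05 with all arrays. Leaving out only fresh CD8+ replicate 2, so that its group rested on the array of highest Gapdh ratio, gave 66 calls, of which 57 were positive and 9 negative, and leaving out replicate 1 in its place gave 0.

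Over the 3363 probe sets, the mean culture change of the 3 subsets in experiment 1 correlated with that in experiment 2 with r = 0.820 and rho = 0.816, and 81.5% had the same sign. For the response difference itself r was 0.109 and rho 0.124, and 54.3% had the same sign. A response difference subtracts changes where the mean averages them, so it carries more array noise. Its lower correlation is therefore in part built in. Probe sets within an array share their library and are not independent, so these correlations are descriptions. In single subsets, culture changed 292 probe sets in CD8+ cells (8.68%), of which 165 rose (4.91%) and 127 fell (3.78%). It changed 592 in CD4+ cells (17.6%), of which 282 rose (8.39%) and 310 fell (9.22%), and 306 in DN cells (9.1%), of which 157 rose (4.67%) and 149 fell (4.43%). These counts moved by over 1.5 times with single arrays. The CD8+ count was 182 without fresh CD8+ replicate 1, 82 and 126 without cultured CD8+ replicate 1 or 2, and 191 without either fresh CD4+ array. The CD4+ count was 192 and 197 without fresh CD4+ replicate 1 or 2, and 385 and 1005 without cultured CD4+ replicate 1 or 2. The DN count was 125 and 52 without fresh DN replicate 1 or 2, and 78 and 201 without cultured DN replicate 1 or 2.

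**Figure D1:**
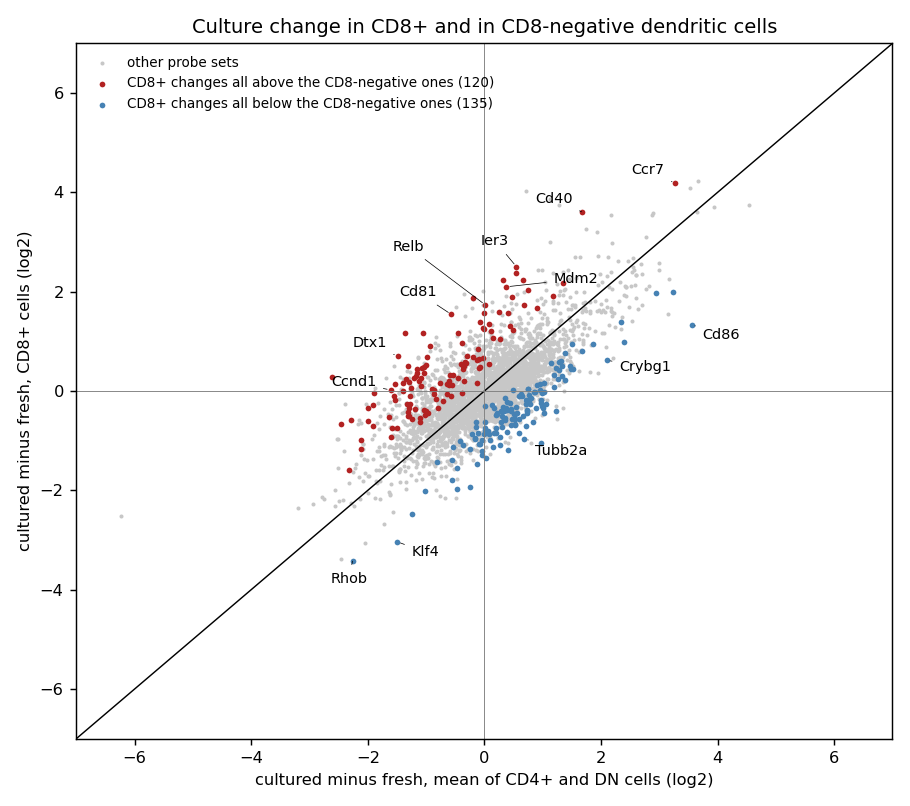
Culture change in CD8+ cells (vertical axis, log2) against the mean culture change of CD4+ and DN cells (horizontal axis, log2) for 3363 measured probe sets, 1 point each. The black line marks equal change. Red points are the 120 probe sets whose CD8+ changes all lie above, and blue points the 135 whose CD8+ changes all lie below, the CD8-negative ones. Most points follow the line, and Cd40, Ier3 and Dtx1 lie above it while Cd86 and Crybg1 lie below.

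Most NF-kB genes had a positive response difference. The list held subunits, IkB proteins and feedback genes, 14 of them measured. Like the other lists, it was chosen with earlier results of these data known. The response difference was positive for 12 of the 14 and negative for Traf6 and Birc2, with a median of 0.53, against -0.04 and 1275 positive of 2684 over all measured genes. The list median was 0.72 in experiment 1 and 0.30 in experiment 2. With 1 array left out it lay between 0.31 (without fresh CD8+ replicate 1) and 0.74, and 10 to 13 of the 14 were positive. A positive value can come from a lower fresh level in CD8+ cells as well as from a higher cultured one. From fresh to cultured cells, the CD8+ minus CD8-negative level went from -2.05 to -0.33 for Relb and -1.17 to 0.03 for Nfkb2. It went from -0.72 to -0.14 for Traf1, but from -0.19 to 1.38 for Tnip1. Of these 14 genes, 3 had an unadjusted p under 0.05 in the positive direction, where 4.1% of all measured genes did, and 0 in the negative, where 3.32% did. After culture, 7 of the 14 rose in CD8+ cells, 5 in CD4+ cells and 4 in DN cells, where 4.92%, 7.82% and 4.21% of all measured genes rose. None of the 14 fell, where 4.17%, 10.3% and 5.03% of all measured genes fell in the 3 subsets.

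Upstream sequences were available for 11 of the 14 genes. The kB-type motif, spelled GGGA, any base, TT, any base and CC in this order and searched on both strands in the 250 bases before the start, was found in 3 of those 11 (27.3%), namely Tnip1, Nfkb2 and Nfkbia, and before 306 of 27025 genes in the RefSeq promoter table (1.13%). All 3 of these genes rose in CD8+ cells with culture, and their last 120 bases before the start are shown for that reason, from RefSeq on GRCm38.p6 with the match in capitals. The windows are chr11:54962941-54963060 on the minus strand for Tnip1, chr19:46304617-46304736 on the plus strand for Nfkb2 and chr12:55492648-55492767 on the minus strand for Nfkbia.
Tnip1: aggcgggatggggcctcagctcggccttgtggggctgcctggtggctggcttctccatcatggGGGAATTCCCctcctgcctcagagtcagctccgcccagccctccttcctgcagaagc
Nfkb2: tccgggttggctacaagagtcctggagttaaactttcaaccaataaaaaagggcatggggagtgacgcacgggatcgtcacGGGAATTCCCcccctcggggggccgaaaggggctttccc
Nfkbia: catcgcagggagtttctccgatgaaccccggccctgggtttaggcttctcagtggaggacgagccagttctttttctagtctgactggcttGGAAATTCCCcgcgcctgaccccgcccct
Each window holds 1 match, which begins 57, 39 and 29 bases before the start in this order. A match describes these letters and is no evidence of binding. The list was chosen for its link to NF-kB, and the RefSeq genes beside it were not limited to measured ones. The shares with the motif therefore say nothing about the culture response.

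No promoter entry was matched for Relb. Relb, the NF-kB subunit that partners the product of Nfkb2, started low in CD8+ cells and came close to the other subsets after culture. Its CD8+ intensities were 370.0 and 417 fresh and 1316 and 1305 cultured. In CD4+ cells they were 1797 and 1615 fresh and 1576 and 1412 cultured, and in DN cells 1401 and 1735 fresh and 1700.5 and 1942 cultured. Both fresh CD8+ arrays lay far below the other 10, and the changes of the subsets were apart. Relb rose in CD8+ cells by 1.73 ± 0.24 (log2, SE; adjusted p = 0.00147), while the changes were -0.19 in CD4+ and 0.22 in DN cells, neither of them called. The response difference was 1.72 ± 0.29 (SE; adjusted p = 0.11), with 1.78 in experiment 1 and 1.66 in experiment 2, and a second, dimmer Relb probe set gave 1.25 (unadjusted p = 0.0136). Leaving out any 1 array kept it between 1.63 and 1.80.

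Nfkb2, the p100 subunit gene, rose in CD8+ cells by 2.37 ± 0.40 (log2, SE; adjusted p = 0.00421), from 166 and 272 to 1324 and 939. Fresh CD4+ and DN cells had 541 and 341 and 495 and 601. It also rose in CD4+ cells by 1.29 ± 0.40 (log2, SE; adjusted p = 0.0465) and had a change of 1.04 in DN cells that was not called. Cultured intensities overlapped between subsets, at 1543 and 723 in CD4+ and 1215 and 1039.5 in DN cells, and the response difference was 1.21 ± 0.49 (SE; adjusted p = 0.621). Nfkbia, which encodes the inhibitor IkB alpha, went from 1680.5 and 2417 to 9438 and 7232 in CD8+ cells, from 3129 and 2979 to 14792 and 5278 in CD4+ cells and from 3136 and 4336 to 9772 and 7349 in DN cells. All 6 cultured arrays were above all 6 fresh ones, and its response difference was 0.67 ± 0.51 (SE) on this probe set and -0.31 on a dimmer one, so the 2 probe sets disagreed in sign.

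Among the feedback genes, Tnip1, whose product binds the ubiquitin editor A20 and restrains NF-kB, had intensities of 319 and 468 in fresh and 2313 and 1461 in cultured CD8+ cells. The CD4+ values were 533 and 511 fresh and 708 and 442 cultured, and the DN values 390.1 and 359 fresh and 1109 and 709.7 cultured. The cultured CD8+ arrays were the 2 highest of the 12, and the changes were apart. Tnip1 rose in CD8+ cells by 2.25 ± 0.35 (log2, SE; adjusted p = 0.00277), and the response difference was 1.58 ± 0.43 (adjusted p = 0.527). Tnfaip3, which encodes A20 itself, rose in CD8+ cells from 49.9 and 263 to 1811 and 802, but its response difference was 2.72 in experiment 1 and 0.33 in experiment 2. Its combined value of 1.52 was 0.44 without fresh CD8+ replicate 1 and was 0.97 without the 3 arrays of highest Gapdh ratio. Traf6, a signalling adaptor, was 1 of the 2 members with a negative value, at -0.83: it rose in CD4+ cells by 1.71 and in DN cells by 1.59, with 0.82 in CD8+ cells, which was not called. That value was -0.23 without the 3 arrays of highest Gapdh ratio. Traf1, a feedback adaptor, rose in all 3 subsets, by 2.70 in CD8+, 1.75 in CD4+ and 2.50 in DN cells.

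TNF and its main receptor both had positive values. Tnf, the cytokine gene, had CD8+ intensities of 222 and 480.3 fresh and 2371 and 692 cultured, CD4+ intensities of 982 and 1337 fresh and 1316 and 525 cultured, and DN intensities of 358 and 493 fresh and 937 and 134 cultured. The replicates were widely spread in every cultured group, and the response difference of 2.31 ± 1.01 (SE) had an adjusted p of 0.641. It was 1.42 without cultured CD8+ replicate 1 and 3.20 without cultured CD8+ replicate 2. Tnfrsf1a, which encodes TNF receptor 1, had 240.1 and 263 in fresh and 423 and 537 in cultured CD8+ cells. The receptor had 281 and 177 in fresh and 211 and 99.1 in cultured CD4+ cells, and 346 and 388 in fresh and 175 and 126 in cultured DN cells. Both cultured CD8+ arrays were above all others, and the changes were apart, with a response difference of 1.85 ± 0.48 (SE; adjusted p = 0.527). No single subset's change was called for this gene (0.91 in CD8+, -0.60 in CD4+ and -1.28 in DN cells).

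Ier3 is an immediate-early gene and known NF-kB target that modulates cell survival. Its CD8+ intensities were 297 and 609 fresh and 2619 and 2231 cultured, those of CD4+ cells 1568 and 1575 fresh and 2798 and 1733 cultured, and those of DN cells 905 and 1552 fresh and 1834 and 1789 cultured. Fresh CD8+ cells were lowest, and after culture the subsets overlapped. Ier3 rose in CD8+ cells by 2.50 ± 0.38 (log2, SE; adjusted p = 0.00225), with changes of 0.49 in CD4+ and 0.61 in DN cells that were not called. The response difference was 1.95 ± 0.46 (SE; adjusted p = 0.374).

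**Figure D2:**
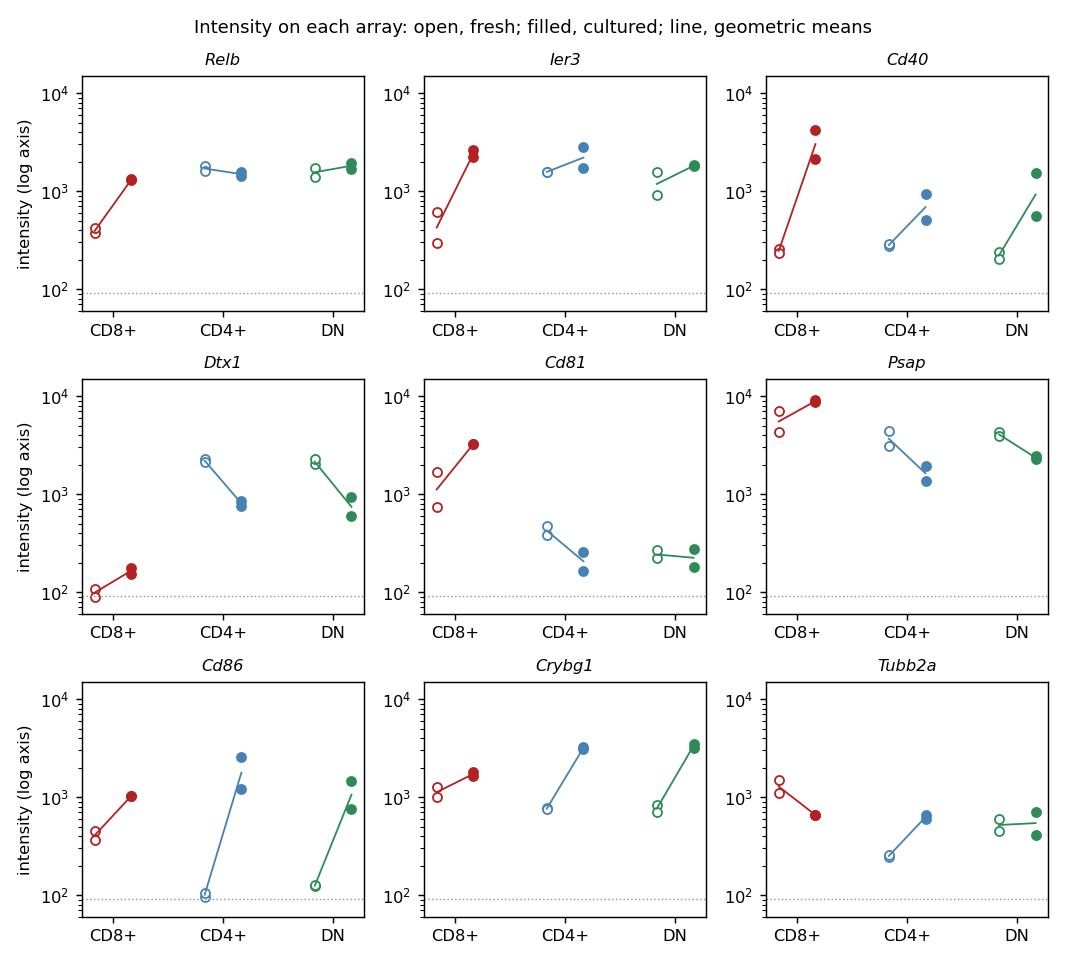
Intensity of 9 genes on each of the 12 arrays (vertical log axis, authors' scaled intensity), with fresh arrays as open and cultured arrays as filled circles, lines joining the geometric means of the 2 arrays, and the dotted line at the detection floor of 91.4. For Relb and Ier3 the fresh CD8+ arrays are the low ones. Cd40 reaches its highest values in cultured CD8+ cells, Dtx1 and Psap are lower in cultured than in fresh CD8-negative cells, and the lines of Cd86 and Crybg1 are steeper in the CD8-negative subsets.

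The costimulatory genes Cd40 and Cd86 had response differences of opposite sign. Cd40, the receptor through which T helper cells license dendritic cells, had intensities of 256 and 236 in fresh and 4237 and 2154 in cultured CD8+ cells. In CD4+ cells Cd40 had 277 and 287 fresh and 932 and 507 cultured, and in DN cells 241 and 201 fresh and 1548 and 552 cultured. The 6 fresh arrays lay between 201 and 287, and both cultured CD8+ arrays were above every other array. Cd40 rose in CD8+ cells by 3.61 ± 0.48 (log2, SE; adjusted p = 0.00127) and in DN cells by 2.05 ± 0.48 (SE; adjusted p = 0.0222), and its change of 1.28 in CD4+ cells was not called. The response difference was 1.94 ± 0.59 (SE; adjusted p = 0.527) and was 2.59 without the 3 arrays of highest Gapdh ratio.

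Cd86, the B7-2 ligand of CD28, showed the largest negative response difference among the genes named by size. Fresh CD8+ cells already had 455 and 362, against 96.4 and 106 in fresh CD4+ and 123 and 126 in fresh DN cells. After culture CD8+ cells had 1024 and 1034, CD4+ cells 1223 and 2569.6 and DN cells 1476 and 757. Fresh CD8+ arrays were above all fresh CD8-negative arrays, and after culture the subsets overlapped. Cd86 rose in CD4+ cells by 4.07 ± 0.39 (log2, SE; adjusted p = 0.000134) and in DN cells by 3.04 ± 0.39 (SE; adjusted p = 0.00109), while the CD8+ change of 1.34 ± 0.39 missed the threshold (adjusted p = 0.0583). The response difference was -2.22 ± 0.48 (SE; adjusted p = 0.329), -2.40 in experiment 1 and -2.04 in experiment 2.

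Over the whole maturation list, 8 genes were measured, 4 with a positive and 4 with a negative response difference, and the median was -0.06. Of the 8, Cd40 had an unadjusted p under 0.05 in the positive and Cd86 and Cd48 in the negative direction, where the shares of all measured genes were 4.1% and 3.32%. Cd83, a maturation marker that stabilises MHC class II at the surface, rose in all 3 subsets, by 1.67 in CD8+, 2.62 in CD4+ and 1.71 in DN cells. Its response difference was -0.50 on the brighter probe set and 1.28 on the dimmer one, so no direction can be given. Icam1, an adhesion molecule of the contact with T cells, rose in CD8+ cells by 1.44 and had 0.30 in CD4+ and 0.94 in DN cells, neither called. Cd48, a ligand of CD244 and CD2, fell in CD8+ cells by 2.16 on the log2 scale, from 1360.0 and 473 to 124 and 248. Its response difference of -1.48 was -2.94 in experiment 1 and -0.03 in experiment 2, and -0.72 without fresh CD8+ replicate 1.

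Ccr7, the chemokine receptor that leads maturing dendritic cells to T cell areas, rose in every subset. It went from 208 and 378 to 5191 and 5074 in CD8+ cells, from 435 and 402 to 4373 and 3483 in CD4+ cells and from 529 and 382 to 4804 and 4282 in DN cells. The log2 rise was 4.18, 3.22 and 3.33 in that order (adjusted p at most 0.000163), and the response difference was 0.91 ± 0.38 (SE; adjusted p = 0.632). The changes were apart, but the value was 0.48 without fresh CD8+ replicate 1. Il4ra, the interleukin 4 receptor chain, rose in CD8+ cells from 84.1 and 233 to 629.6 and 466. Its response difference was 2.40 in experiment 1 and 0.44 in experiment 2, and its combined value of 1.42 went to 0.73 without fresh CD8+ replicate 1.

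Genes that mark the subsets had values of both signs. Of 7 measured markers of CD8+ dendritic cells, 3 had a positive and 4 a negative response difference, and of 11 markers of CD8-negative dendritic cells 6 were positive and 5 negative. Dtx1, a Notch target that encodes an E3 ubiquitin ligase and was listed with the CD8-negative markers, had 108 and 90.0 in fresh and 154 and 178 in cultured CD8+ cells. In CD4+ cells it had 2267 and 2131 fresh and 757 and 851 cultured, and in DN cells 2014 and 2278 fresh and 592 and 931 cultured. The changes were apart. Dtx1 fell in CD4+ cells by 1.45 on the log2 scale (adjusted p = 0.00577) and in DN cells by 1.53 on the log2 scale (adjusted p = 0.00746), and the CD8+ change of 0.70 lay near the detection floor and was not called. The response difference was 2.19 ± 0.35 (SE; adjusted p = 0.11), and leaving out any 1 array kept it between 2.03 and 2.35. The gap between CD8+ and CD8-negative cells went from -4.38 in fresh to -2.20 in cultured cells on the log2 scale.

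Cd81 encodes a tetraspanin that organises surface receptors. For this gene CD8+ cells had 746 and 1669 fresh and 3214 and 3282 cultured, CD4+ cells 472 and 382 fresh and 259.5 and 164 cultured, and DN cells 220.5 and 266 fresh and 278 and 181 cultured. CD8+ cells were above the others in both states, and the changes were apart. Cd81 rose in CD8+ cells by 1.54 ± 0.40 (log2, SE; adjusted p = 0.0343), with -1.02 in CD4+ and -0.11 in DN cells, neither called. The response difference of 2.11 ± 0.48 (SE; adjusted p = 0.374) took the gap from 1.79 to 3.90.

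Gusb, the lysosomal beta-glucuronidase and listed as a marker of the CD8+ subset, had a change of -0.27 in CD8+ cells that was not called, with 2169.9 and 2060.0 fresh and 1722 and 1793 cultured. It fell in CD4+ cells, from 271 and 277 to 84.3 and 101, and in DN cells, from 385 and 403 to 153 and 195. These falls were called (adjusted p = 0.00333 and 0.0181), and the cultured CD4+ arrays lay around the detection floor. The changes were apart, with a response difference of 1.07 ± 0.32 (SE; adjusted p = 0.527).

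Of the other CD8+ markers, Cd24a, the heat-stable antigen, had 2063 and 2486 in fresh and 1367 and 1458 in cultured CD8+ cells, 164 and 219 and then 529 and 379 in CD4+ cells, and 712 and 728 and then 559.9 and 743 in DN cells. It rose in CD4+ cells (adjusted p = 0.0142), the changes were apart, and the response difference was -1.21 ± 0.35 (SE; adjusted p = 0.527). Irf8, the transcription factor required for CD8+ dendritic cells, went from 8271 and 5017 to 1908 and 1098 in CD8+ cells, a log2 change of -2.15 that was not called (adjusted p = 0.0638). Its response difference of -1.67 was -0.44 without the 3 arrays of highest Gapdh ratio. Id2, the inhibitor of E proteins needed by the same subset, rose in CD4+ cells by 1.67 and in DN cells by 1.25, with 0.51 in CD8+ cells, not called. Its response difference was -0.95, and -0.50 without fresh CD8+ replicate 1. Cadm1, a nectin-like adhesion molecule of the subset, had a response difference of -0.40 ± 0.55 (SE), within its error. S100a4, a calcium-binding protein of the CD8-negative cells, had -1.13, and -0.64 without fresh CD8+ replicate 1. Ltb, which encodes lymphotoxin beta, fell in all 3 subsets, with log2 changes of -2.26, -2.24 and -2.33, and its response difference was 0.02 ± 0.36 (SE).

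**Figure D3:**
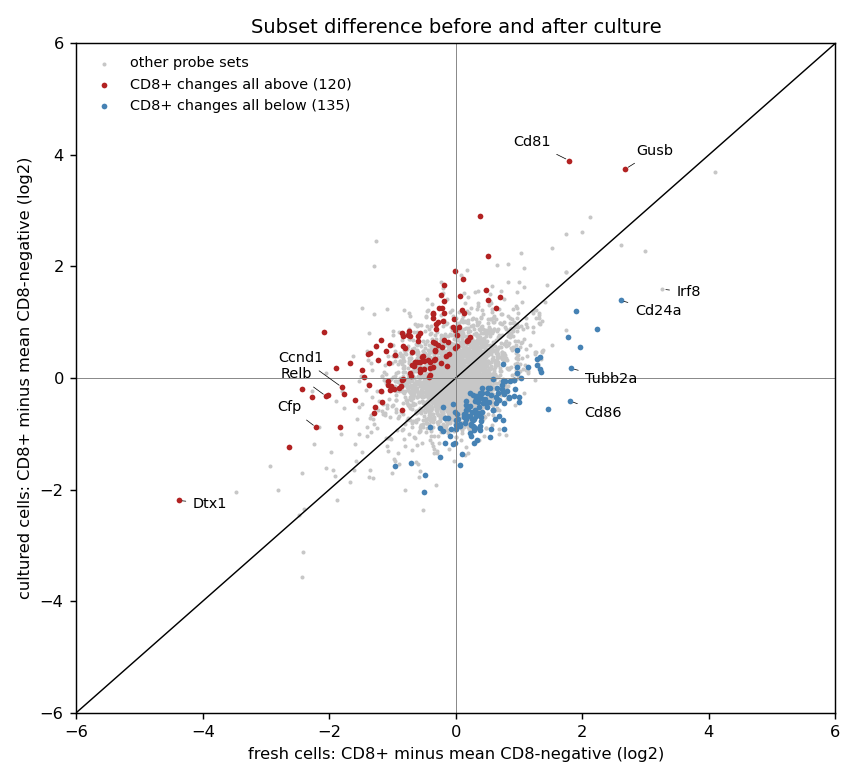
CD8+ minus mean CD8-negative level (log2) in fresh cells on the horizontal and in cultured cells on the vertical axis for the 3363 measured probe sets. Distance from the black line of equal gaps is the response difference, so both axes enter it. Red and blue points are the 120 and 135 probe sets whose changes are apart, as in the plot of culture changes. Dtx1 and Relb approach the CD8-negative level, Cd81 and Gusb move further from it, and Cd24a and Tubb2a lose part of their excess in CD8+ cells.

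Among the MHC class II genes, the peptide-binding chains and the invariant chain rose in CD4+ cells, by 1.59 for H2-Aa, 1.35 for H2-Ab1, 1.65 for H2-Eb1 and 1.48 for Cd74. Their response differences were -0.49, -0.29, -0.43 and -0.42, each turning positive under quantile normalization (0.05, 0.05, 0.12 and 0.17), so no direction is given. The peptide editors and the regulator had positive values. H2-DMa, a chain of the HLA-DM counterpart that exchanges peptides, had 2818 and 5312 in fresh and 3086 and 3559 in cultured CD8+ cells. In CD4+ cells it fell, from 4755 and 4097 to 608 and 1121 (adjusted p = 0.0025), and in DN cells it had 3819 and 2138 fresh and 1423 and 1808 cultured. The response difference was 1.40 ± 0.48 (SE; adjusted p = 0.535).

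H2-DMb1 and H2-DMb2, the partner chains, had 1.56 and 2.04, H2-Oa, which modulates the editor, had 0.94, and Ciita, the class II transactivator, had 1.76. All 4 fell in CD4+ cells, and Ciita also in DN cells. H2-DMb1 and H2-DMb2 are near-identical copies, so their signals may not be separate. In experiment 2 the values were smaller, at 0.48 for H2-DMa, 0.22 for H2-DMb1, 0.14 for H2-DMb2, 0.72 for Ciita and 0.68 for H2-Oa. Without fresh CD8+ replicate 1 they were 0.90 for H2-DMb1, 0.85 for H2-DMb2 and 0.64 for Ciita, and without the 3 arrays of highest Gapdh ratio 0.64 for H2-DMa, 0.49 for H2-DMb1, 0.30 for H2-DMb2 and 0.87 for Ciita. Against CD4+ cells alone the response difference was 2.19 for H2-DMa, 2.235 for H2-DMb1, 2.64 for H2-DMb2, 1.395 for H2-Oa and 1.83 for Ciita. Against DN cells alone it was smaller, at 0.61, 0.88, 1.45, 0.49 and 1.70 in the same order. Over the 13 measured class II genes, 7 response differences were positive and 6 negative, with a median of 0.31 that was 1.21 in experiment 1 and -0.08 in experiment 2. Leaving out any 1 array put that median between -0.14 (without cultured CD4+ replicate 1) and 0.99 (without fresh CD8+ replicate 2). Lgmn, a lysosomal endopeptidase that starts invariant chain processing, rose in all 3 subsets, by 1.39 in CD8+, 2.48 in CD4+ and 2.22 in DN cells. Its changes were apart in the downward direction, with a response difference of -0.96 ± 0.35 (SE; adjusted p = 0.547).

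In the MHC class I pathway, 9 of 13 measured response differences were positive and 4 negative, with a median of 0.26. All 3 subunits that make the immunoproteasome were positive. Psmb10 had 623 and 1171 in fresh and 967 and 1087 in cultured CD8+ cells, 1264 and 1152 and then 676 and 474 in CD4+ cells, and 1198 and 1610.5 and then 672 and 643 in DN cells. It fell in CD4+ cells (adjusted p = 0.0412), the changes were apart, and the response difference was 1.35 ± 0.40 (SE; adjusted p = 0.527), 0.89 without fresh CD8+ replicate 1. Psmb8 also had changes apart, with 0.75 ± 0.33 (SE), which was 0.45 without that array, and Psmb9 had 0.97. Tap1, a chain of the peptide transporter, had 0.04 ± 0.31 (SE) and B2m, the light chain of class I, had -0.54 ± 0.40 (SE), so the size of each was near or below its error, and B2m had 0.06 without the 3 arrays of highest Gapdh ratio.

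Among 17 measured lysosomal genes, 12 response differences were positive and 5 negative, and the median was 0.73. That median was 1.17 in experiment 1 and 0.00 in experiment 2, and -0.19 without the 3 arrays of highest Gapdh ratio. Psap, the precursor of the saposins that help degrade sphingolipids and load lipid antigens, had positive values with and without those arrays. Its intensities were 7132 and 4267 in fresh and 8663 and 9141 in cultured CD8+ cells, 4375 and 3091 and then 1356 and 1954 in CD4+ cells, and 4258 and 3907 and then 2281 and 2429.9 in DN cells. The changes were apart, Psap fell in CD4+ cells by 1.18 on the log2 scale (adjusted p = 0.0226), and the response difference was 1.67 ± 0.37 (SE; adjusted p = 0.329), or 1.89 without the 3 arrays. A second Psap probe set gave 2.53 (unadjusted p = 0.00586). Ctsd, a lysosomal protease, had 0.83, which was 3.08 in experiment 1 and -1.42 in experiment 2, and -0.54 without the 3 arrays. Man2b1, a lysosomal mannosidase, fell in CD4+ cells, and its response difference of 0.91 was 0.33 without the 3 arrays. Cd63, a tetraspanin of late endosomes, rose in CD4+ cells by 2.33 and in DN cells by 2.73, with 1.42 in CD8+ cells, not called, and a response difference of -1.12 (-0.18 in experiment 1 and -2.05 in experiment 2). Tcirg1, a subunit of the proton pump that acidifies lysosomes, had 179.9 and 802 in fresh and 377 and 369 in cultured CD8+ cells. Tcirg1 fell in DN cells, its changes were apart, and its response difference of 1.86 was 0.79 without fresh CD8+ replicate 1. Uvrag, a partner of Beclin in autophagy and endosome traffic, had 608 and 601 in fresh and 579.7 and 762 in cultured CD8+ cells against 1129 and 1136 and then 333 and 375 in CD4+ and 962 and 1176 and then 348 and 478 in DN cells. Uvrag fell in CD4+ cells (adjusted p = 0.00255) and in DN cells (adjusted p = 0.0105), and its response difference was 1.66 ± 0.34 (SE; adjusted p = 0.258).

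Of 11 measured interferon-induced genes, 8 had a positive and 3 a negative response difference, with a median of 0.65. It was 1.05 in experiment 1 and 0.73 in experiment 2, but 0.1 without cultured DN replicate 2 and 1.21 without cultured DN replicate 1. Among these genes 2 had an unadjusted p under 0.05, Irf7 and Irf1, both positive, where 4.1% of all measured genes had such a p in that direction. After culture 5 of the 11 rose in CD8+ cells, 4 in CD4+ cells and 2 in DN cells, against 4.92%, 7.82% and 4.21% of all measured genes. Irf7, the regulator of type I interferon genes, had 135 and 402 in fresh and 836 and 1078 in cultured CD8+ cells, 576 and 402 and then 446 and 353 in CD4+ cells, and 458 and 282 and then 696 and 249 in DN cells. Both cultured CD8+ arrays were the highest of the 12. Irf7 rose in CD8+ cells by 2.01 ± 0.55 (log2, SE; adjusted p = 0.0436), and the response difference was 2.04 ± 0.67 (SE; adjusted p = 0.527) on this probe set, 0.18 on a dimmer one and 1.27 without fresh CD8+ replicate 1. Irf1, an early interferon and NF-kB responsive factor, rose in CD8+ cells from 611 and 1156 to 3526 and 2392 (adjusted p = 0.0353). The CD4+ values of Irf1 were 1222 and 1403 fresh and 1502 and 922 cultured, the DN values 884 and 1119 fresh and 2157 and 814 cultured, and the response difference was 1.66 ± 0.56 (SE; adjusted p = 0.532). Usp18, which removes ISG15 from proteins, rose in CD8+ cells from 155 and 138 to 958 and 686. In CD4+ cells Usp18 had 451 and 391 fresh and 765 and 775 cultured, and in DN cells 229 and 173 fresh and 1021 and 180.5 cultured. Cultured values thus overlapped between subsets. Its response difference of 1.45 ± 0.72 (SE) was 2.14 without the 3 arrays of highest Gapdh ratio. It was 2.07 without cultured DN replicate 1 and 0.83 without cultured DN replicate 2. Isg15 itself rose in all 3 subsets, by 3.53, 2.85 and 2.91 in CD8+, CD4+ and DN cells, with a response difference of 0.65 ± 0.76 (SE). That value was 0.10 without cultured DN replicate 2, 1.21 without cultured DN replicate 1 and 1.71 without the 3 arrays of highest Gapdh ratio.

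The short list of D cyclins, CDK inhibitors and GADD45 genes, which also held Mdm2, had 6 measured members. All 6 had a positive response difference, with a median of 0.88. With 1 array left out, the median lay between 0.63 and 1.4, and at least 5 of the 6 were positive. Ccnd1, cyclin D1, had 470.4 and 783 in fresh and 631 and 600.3 in cultured CD8+ cells, 2451 and 2461 and then 599 and 668 in CD4+ cells, and 2117 and 1561 and then 820.5 and 698 in DN cells. After culture the subsets overlapped. Ccnd1 fell in CD4+ cells by 1.96 on the log2 scale (adjusted p = 0.00162) and in DN cells by 1.26 on the log2 scale (adjusted p = 0.0222), and the response difference was 1.63 ± 0.36 (SE; adjusted p = 0.329), with 1.48 on a second probe set. Mdm2, the ubiquitin ligase of p53, rose in CD8+ cells from 128 and 294 to 931 and 767, and had 218 and 232 and then 305 and 291 in CD4+ and 234 and 237 and then 349.6 and 260.0 in DN cells. The cultured CD8+ arrays were above the other 10. The CD8+ rise was 2.10 ± 0.37 (log2, SE; adjusted p = 0.00495), and the response difference 1.72 ± 0.45 (SE; adjusted p = 0.527) was 1.14 without fresh CD8+ replicate 1. Gadd45b, a stress sensor, rose in all 3 subsets, by 3.10, 3.06 and 2.49, and its response difference was 0.32 ± 0.47 (SE), or -0.09 without fresh CD8+ replicate 2.

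The remaining genes with the most positive values among those apart were Tgfbi, Rbm38 and Exosc5. Tgfbi, a matrix protein, had 1063 and 1453 in fresh and 804 and 1205 in cultured CD8+ cells. It fell in CD4+ cells to 178 and 391 and in DN cells to 273 and 346, with a response difference of 1.66 ± 0.46 (SE; adjusted p = 0.527), or 1.07 without the 3 arrays of highest Gapdh ratio. Rbm38, an RNA-binding protein, fell in CD4+ and DN cells, with a response difference of 1.71 ± 0.52 (SE). Fresh CD8+ cells were already low for Rbm38, at 113 and 214. Cultured values came near the floor in every subset, at 98.7 and 104 in CD8+, 196.5 and 95.4 in CD4+ and 142 and 97.2 in DN cells. The CD8+ minus CD8-negative level of Rbm38 went from -2.02 in fresh to -0.31 in cultured cells. Exosc5, a subunit of the RNA exosome, had 169 and 605 in fresh CD8+ cells, and its 1.80 was 0.89 without replicate 1. Zfp36, which encodes tristetraprolin, a protein that speeds the decay of cytokine mRNA, fell in CD4+ cells from 3774 and 3837 to 1436 and 1752 and in DN cells from 3469 and 4961 to 1406 and 1657. CD8+ cells had 1399 and 3532 fresh and 2215 and 3127 cultured, and the response difference of 1.60 ± 0.47 (SE) was 0.93 without fresh CD8+ replicate 1. Zfp36l2, its relative, fell in all 3 subsets, with a response difference of -0.92 ± 0.45 (SE).

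Fos, Jun and Egr1, which encode early transcription factors, fell in every subset. Of 7 measured AP-1 genes, 3 fell in CD8+, 3 in CD4+ and 4 in DN cells, against 4.17%, 10.3% and 5.03% of all measured genes that fell. The log2 changes in CD8+, CD4+ and DN cells were -1.56, -1.45 and -1.44 for Fos, -2.32, -2.50 and -2.62 for Egr1 and -2.18, -2.27 and -3.25 for Jun, all called. The response differences of these AP-1 and EGR genes were -0.12 ± 0.33 for Fos, 0.24 ± 0.73 for Egr1 and 0.58 ± 0.57 for Jun (SE), each near or below its error. Of 15 measured immediate-early genes, 8 were positive and 7 negative. Klf4, a Kruppel-like factor, fell in CD8+ cells from 908 and 662 to 66.4 and 118, around the detection floor. It fell in CD4+ cells from 815 and 911 to 424 and 359 and in DN cells from 1262 and 1589 to 311 and 485. The falls were called in all 3 subsets and were apart, with a response difference of -1.53 ± 0.42 (SE; adjusted p = 0.527). Rhob, a small GTPase of endosomes, fell as well, with log2 changes of -3.43 in CD8+, -2.15 in CD4+ and -2.37 in DN cells. The changes of Rhob were apart, with a response difference of -1.16 ± 0.34 (SE; adjusted p = 0.527). Klf2, a quiescence factor, was outside the measured set because it was below the floor on all 6 cultured arrays. Its fresh intensities were 1841 and 1273 in CD8+, 405 and 682 in CD4+ and 553 and 1246 in DN cells, and with cultured values set to the floor the log2 changes were -4.07, -2.52 and -3.18, which are bounds that follow the fresh levels and allow no response difference.

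**Figure D4:**
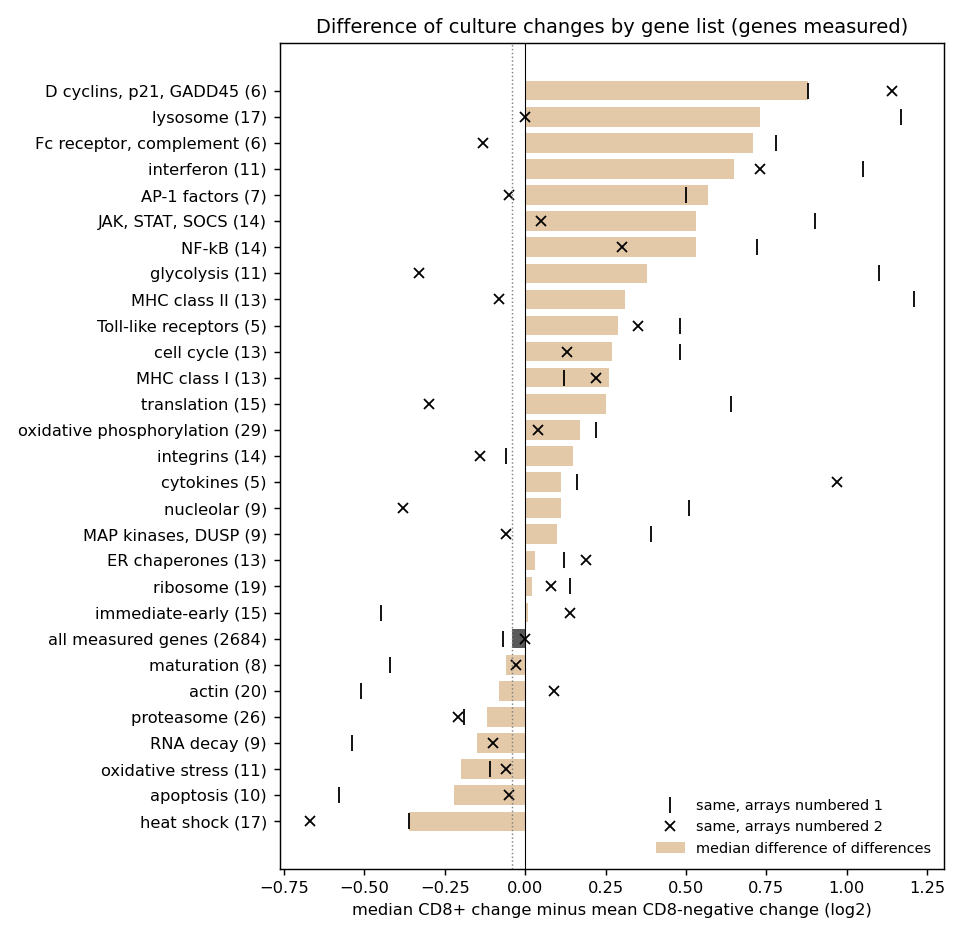
Median response difference (log2) over the measured genes of each list with at least 5 of them, as bars, with the medians from the arrays of experiment 1 (vertical ticks) and 2 (crosses). The number of measured genes is in parentheses, and the dark bar and dotted line mark all 2684 measured genes at -0.04. NF-kB, interferon and D cyclin genes lie to the right and heat shock genes to the left in both experiments, whereas the lysosomal and MHC class II medians are 1.17 and 1.21 in experiment 1 and 0.00 and -0.08 in experiment 2.

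Most heat shock genes had a negative response difference. Of 17 measured, 12 were negative and 5 positive, with a median of -0.36 (-0.36 in experiment 1 and -0.67 in experiment 2), and 0 were positive without the 3 arrays of highest Gapdh ratio. Hsp90aa1, the inducible cytosolic HSP90, rose in CD4+ cells from 1247 and 2102 to 5993 and 7147 (adjusted p = 0.00302). It had 1733 and 2889.7 and then 3965 and 5147 in DN cells and 2335 and 1567 and then 2522 and 2723 in CD8+ cells, with a response difference of -1.06 ± 0.42 (SE; adjusted p = 0.612). Hspd1, the mitochondrial chaperonin HSP60, had 1199 and 1069 in fresh and 1267 and 1214 in cultured CD8+ cells and rose in CD4+ cells from 711 and 802 to 1349 and 2222. Its changes were apart, with -0.83 ± 0.34 (SE). Hsph1, an HSP110 chaperone, rose in CD4+ cells and had a response difference of -1.53 ± 0.72 (SE), or -0.91 without fresh CD8+ replicate 2 and -2.15 without fresh CD8+ replicate 1. Stip1, the HSP70 and HSP90 organising protein, had 2.18 with fresh CD8+ intensities of 35.9 and 569, and -0.28 without the 3 arrays.

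Among the redox genes, Txn1, thioredoxin, began higher in CD8+ cells, at 5661 and 4032 fresh and 5717 and 5546 cultured, while it rose in CD4+ cells from 1398 and 1557 to 2739 and 3952 and in DN cells from 1319.8 and 1357 to 3461 and 3420.3. Both rises were called, the changes were apart, and the response difference was -1.02 ± 0.32 (SE; adjusted p = 0.527). Txnrd1, its reductase, rose in all 3 subsets, by 3.70, 4.06 and 3.83 on the log2 scale, with a response difference of -0.25 ± 0.31 (SE). Cat, catalase, fell in CD4+ and DN cells, with 1.10 ± 0.48 (SE) on the brighter and -0.13 on a dimmer probe set. Of 11 measured genes of the oxidative stress list, 5 were positive and 6 negative. All 4 measured sterol genes were negative, with a median of -0.88 that was -0.05 in experiment 1 and -1.83 in experiment 2. Hmgcs1, an enzyme of cholesterol synthesis, rose in CD4+ cells by 1.47 and in DN cells by 1.76, with 0.41 in CD8+ cells, not called. Its response difference of -1.21 ± 0.47 (SE) was -0.28 in experiment 1 and -2.13 in experiment 2. Casp2, an apical caspase, fell in CD8+ cells from 394 and 481 to 117 and 128 (adjusted p = 0.00511), with changes of -0.40 and -0.72 in CD4+ and DN cells that were not called. Casp2 had its changes apart and a response difference of -1.23 ± 0.39 (SE). Bcl2l11, which encodes the death inducer BIM, rose in all 3 subsets, by 4.09, 3.43 and 3.62.

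The most negative values besides Cd86 came from genes of varied function. Crybg1, a protein with crystallin-type domains, had the smallest p in this direction. It had 1267 and 994 in fresh and 1653 and 1801 in cultured CD8+ cells, 767 and 759 and then 3118 and 3259 in CD4+ cells, and 831 and 702 and then 3499.5 and 3187 in DN cells. The fresh CD8+ arrays were the highest fresh ones and the cultured CD8+ arrays the lowest cultured ones. Crybg1 rose in CD4+ cells by 2.06 ± 0.24 and in DN cells by 2.13 ± 0.24 (log2, SE; adjusted p = 0.000309 and 0.000466), and the response difference was -1.47 ± 0.29 (SE; adjusted p = 0.258). Tubb2a, a beta tubulin, had 1108 and 1479 in fresh and 662 and 651 in cultured CD8+ cells, 244 and 257 and then 660.3 and 592 in CD4+ cells, and 447 and 602 and then 415 and 710.3 in DN cells. It rose in CD4+ cells (adjusted p = 0.0161), and the response difference was -1.65 ± 0.38 (SE; adjusted p = 0.374). The probe sets of Tubb2a, Cadm1 and Gadd45b carry the array design's mark for a sequence family, and those of Cd86 and Zfp36 the mark for probes shared between transcripts, so signal from related transcripts cannot be told apart.

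Gpr65, an acid-sensing receptor, had 766 and 464 in fresh and 212 and 392 in cultured CD8+ cells, with changes of -1.04, 1.15 and 0.80 in CD8+, CD4+ and DN cells, none called, and a response difference of -2.01 ± 0.58 (SE). Polr2g, a subunit of RNA polymerase II, fell in CD8+ cells from 1116 and 816 to 228 and 269 (adjusted p = 0.00743). It had 490.3 and 668 and then 537 and 593 in CD4+ cells and 502 and 605 and then 575 and 269 in DN cells, and a response difference of -1.68 ± 0.45 (SE). Ncoa4, the receptor that delivers ferritin to autophagy, rose in CD4+ cells from 319.5 and 434 to 609.5 and 1528 (adjusted p = 0.0307), while CD8+ cells had 383 and 394 fresh and 273 and 316 cultured. Its response difference was -1.62 ± 0.47 (SE; adjusted p = 0.527), and -2.04 without the 3 arrays of highest Gapdh ratio. Unc119b, a carrier of lipid-modified proteins, fell in CD8+ cells from 1497 and 1303 to 607 and 719 (adjusted p = 0.0427), with -1.35 ± 0.36 (SE). The other 5 of this group were Nxf1 (mRNA export), Gtf2a1 (a general transcription factor), Usp34 (a deubiquitinase), H6pd (an enzyme of the endoplasmic reticulum) and Glrx (glutaredoxin), between -1.60 and -1.37. Without the 3 arrays Nxf1 had -0.74 and H6pd -0.58, and without fresh CD8+ replicate 1 Usp34 had -0.94.

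**Figure D5:**
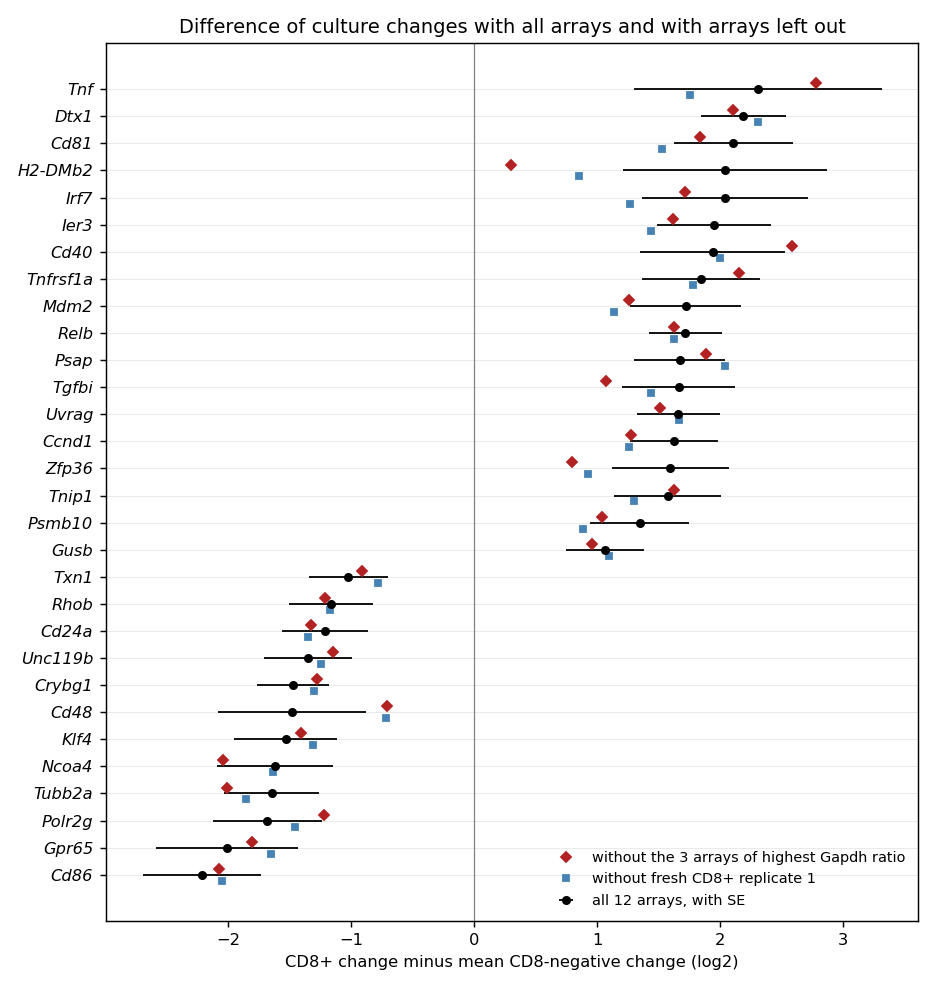
Response difference (log2, horizontal axis) of 30 named genes from all 12 arrays with its standard error (black), without the 3 arrays of highest Gapdh ratio (red diamonds) and without fresh CD8+ replicate 1 (blue squares). Dtx1, Relb, Uvrag, Gusb, Crybg1 and Cd86 keep nearly the same value in all 3, while H2-DMb2, Zfp36 and Cd48 move well towards 0.

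Several lists lay near the value of all genes. The medians were 0.02 for 19 ribosomal protein genes, 0.03 for 13 genes of the unfolded protein response, 0.17 for 29 subunits of oxidative phosphorylation, -0.08 for 20 actin genes and -0.12 for 26 proteasome genes. In these 5 lists together 2 genes had an unadjusted p under 0.05, 1 proteasome gene with a positive and 1 oxidative phosphorylation gene with a negative value, of 107 measured. Each is 0.935% of the 107, where 4.1% of all measured genes had such a p with a positive and 3.32% with a negative value. The 11 glycolytic genes had 0.38, with 1.1 in experiment 1 and -0.33 in experiment 2. The 14 JAK-STAT and SOCS genes had 0.53 with 11 positive, but 0.9 in experiment 1 and 0.05 in experiment 2, and 0.08 without the 3 arrays of highest Gapdh ratio. The 9 genes of RNA decay had -0.15 with 2 positive, Zfp36 among them.

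The 2 CD8-negative subsets, averaged above, were compared with each other in the same way. No probe set was called (0.0% of 3363; smallest adjusted p 0.994), and 66 (1.96%) had an unadjusted p under 0.05. Taking CD4+ cells or DN cells alone as the reference for CD8+ cells also gave 0 calls. Without cultured CD4+ replicate 2, so that its group rested on an array of high Gapdh ratio, 22 probe sets were called between CD4+ and DN cells, 1 higher and 21 lower in CD4+ cells.

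Markers of other cells were compared as summed intensities. The sum of 12 CD8+ dendritic cell markers was 20425 to 29795 on the CD8+ arrays and 5989 to 12166 on the others. The sum of 14 macrophage and monocyte markers was 2880 and 4259 in fresh and 7502 and 12150 in cultured CD8+ cells, against 2440 to 6043 on the other 8 arrays. Hmox1, the haem-degrading enzyme, made the largest contribution in cultured CD8+ cells, with 729 and 1283 in fresh and 3053 and 7279 in cultured CD8+ cells, and Cd14, the lipopolysaccharide co-receptor, came next with 261 and 138 and then 2226 and 2238. Cd14 also rose in CD4+ cells, from 159 and 90.4 to 869.5 and 298, and in DN cells, from 161 and 82.8 to 885 and 395. Its response difference was 1.37 ± 0.69 (SE) with all arrays, 0.65 in experiment 1 and 2.08 in experiment 2. Without the 3 arrays of highest Gapdh ratio, which leaves the lower cultured CD4+ and DN arrays, it was 2.49. On both cultured CD8+ arrays 5 of the 14 markers were not above the floor, namely Adgre1, C1qc, Marco, Mrc1 and Siglec1. The sum of 13 B cell markers was 4778 and 5290.0 in fresh and 4810.0 and 2136 in cultured CD8+ cells, 5937 and 6535 and then 4002 and 2319 in CD4+ cells, and 4464 and 3330.0 and then 3659 and 1991 in DN cells. It was lower on each cultured CD4+ array than on both fresh ones, and each cultured array of replicate 2 was below both fresh arrays of its subset. Summed plasma cell markers were 950.0 to 1328 on fresh and 1080.0 to 3699 on cultured arrays, and summed red cell markers were 619 to 3728, highest on cultured CD4+ replicate 1. The part of macrophage, B cell, plasma cell or red cell RNA in the response differences was not tested. Summed markers of T cells were 173 to 751 and those of platelets 24.0 to 340.0, with no array of CD8+ cells the highest in either.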

How the data were processed

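The deposited table holds 1 value per probe set and array: Average Difference intensities (perfect match minus mismatch) to which the authors applied global scaling, per the labels. The labels do not name the software, its version or the scaling target. A trimmed mean of 150.0 on every array showed the scaling, and 19.7% to 26.5% of values per array were below 0, which limits the precision of dim genes. Of 12488 probe sets, 66 controls were left out. Symbols came from the platform annotation and covered 10833 probe sets with 1 gene, 396 with several and 1193 with none, and 10817 were matched to RefSeq.

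Intensities x were turned into log2((x + √(x² + c²))/2) with c = 45.69, the noise level, and the detection floor was 2 times c. Probe sets with a group mean above the floor in all 6 groups were fitted with limma 3.58.1 in R 4.3.3 (1 mean per group, eBayes with trend and robust estimation, 2-sided moderated test, Benjamini-Hochberg adjustment over 3363 probe sets), and the response difference was a contrast of these means. Each adjusted p in the text comes from that fit, and SE is its standard error. A gene was represented by its brightest probe set, which gave 2684 genes. Genes were named as the 12 most positive and 12 most negative response differences among genes apart and above the floor on all arrays, the members of lowest p in each list, further members by role, and Klf2, Cd8a and Cd4. The members and lists were chosen with earlier results of these data known. The script was tested on simulated data. Tables were made with Python 3.11.15, pandas 2.3.3 and numpy 2.4.6, and figures with matplotlib 3.10.9. Alternatives were other scalings, offsets, filters, variance models, single reference subsets, a replicate block and leaving out arrays.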

Additional observations from a re-analysis of the deposited data

How the results depend on the processing

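The count of called response differences, 0 with all 12 arrays, was 1 without a filter on dim probe sets, 14 without the 3 arrays of highest Gapdh ratio and 0 to 66 when 1 array was left out, the highest without fresh CD8+ replicate 2. It was 0 under quantile normalization, median centring, both other offsets, a hard floor, both other filters, a fit without trend, array weights and either single reference. With the replicate block it was also 0, with 374 probe sets at an unadjusted p under 0.05 against 251. Deviations of same-numbered arrays correlated at 0.057 to 0.501 over 15 pairs of groups, all 15 positive and 13 over 0.1, and the labels do not say what a number shares, so the fit without the block was kept. The block gave 904 calls for culture in CD4+ cells and 520 in DN cells. The count between CD4+ and DN responses was 1 without the 3 arrays and 0 to 22 with 1 array left out, the highest without cultured CD4+ replicate 2. Without the filter, or with one that asked for 2 arrays above the floor, 928 and 1133 culture changes were called in CD4+ cells and 502 and 610 in DN cells. Of the 251 probe sets, 124 kept an unadjusted p under 0.05 and their sign without the 3 arrays, 83 without fresh CD8+ replicate 1 and 221 without fresh CD8+ replicate 2, and 0 turned sign in these 3 fits. The 251 were picked by their p in a fit that shares the remaining arrays. The lack of reversals is therefore largely built in and is no support for their direction. Of 93 genes followed, some of them also chosen by size or p in the main fit, 77 kept their direction under every alternative run. The response differences of 50 moved by over 1.5 times with 1 array left out. Without the 3 arrays the response difference reversed to -0.56 for Csf2rb, -0.54 for Ctsd, -0.30 for Jun and for Hmox1, -0.28 for Stip1, -0.05 for Ltb, 0.22 for Fos, 0.06 for B2m and for H2-Ab1, 0.13 for H2-Aa, 0.04 for H2-Eb1 and 0.18 for Cd74. Under quantile normalization it reversed to 0.05 for H2-Aa and H2-Ab1, 0.12 for H2-Eb1, 0.17 for Cd74 and -0.13 for Tap1. Ltb had 0 with a hard floor and -0.03 against CD4+ cells alone, and Tap1 had -0.13 against DN cells alone. With 1 array left out, values that changed sign ran from -0.82 to 0.02 for Cadm1, -0.17 to 0.21 for Ltb, -1.13 to 0.15 for H2-Aa, -0.97 to 0.13 for Cd74, -0.07 to 0.15 for Tap1, -0.09 to 0.73 for Gadd45b, -0.72 to 1.19 for Egr1, -0.37 to 0.14 for Fos and -0.01 to 1.16 for Jun. The cause of these reversals was not tested. With 2 arrays a group and a median standard error of 0.45, no response difference of any size passed the adjusted threshold in the main fit. Large values such as 2.31 for Tnf and -2.22 for Cd86 had an adjusted p of 0.641 and 0.329 in limma's test. Differences much under a log2 value of 1 lay within the spread between arrays, and genes near the floor understate their change.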
